A study of Mus musculus with 3 samples.

Results

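The creatine kinases and the genes that supply their substrate are 7 genes, Ckb, Ckm, Ckmt1, Ckmt2, Gatm, Gamt and Slc6a8, of 54532 in the deposited table. They were matched by symbol, each to 1 identifier, and were chosen by their membership of the creatine system after Ckb had been seen to be lower in both libraries that received thyroid stimulating hormone (TSH). The values that chose them are therefore given as a description. The samples were RAW264.7 cells, a mouse macrophage line labelled wild type. The cytokine RANKL turns these cells into osteoclasts, which resorb bone. All 3 libraries came from cells induced with RANKL for 3 days. The first had no TSH and is labelled 0 h, and the others had 10 mU/mL of TSH for 2 h and for 24 h. The labels do not say whether RANKL was kept on during TSH or how long the cells without TSH stayed in culture, so time in culture and TSH cannot be told apart. The 2 columns with TSH are named T1 and T2, which does not tell 2 h from 24 h, and these names are kept here.

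There was 1 library for each column and no replicate, so no difference has a test. All intervals are 95% intervals for counting error alone. Read totals recovered from the table were 16156926 with RANKL alone, against 16809034 in T1 and 17390744 in T2. Levels are in FPKM, which divides the fragments of a gene by its length in kilobases and by sequencing depth. Of the 10 osteoclast markers 9 averaged 1 FPKM or more over the libraries, with Ctsk, the gene of the bone matrix protease cathepsin K, at 1337 FPKM and Acp5, the gene of tartrate-resistant acid phosphatase, at 972 FPKM with RANKL alone. The 10 osteoblast and fibroblast markers summed to 0.259 to 0.380 FPKM in each library.

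Creatine kinases move a phosphate group between ATP and creatine, so that phosphocreatine can hold and carry high-energy phosphate within a cell. Cells take up creatine through the transporter Slc6a8 or make it in a pair of steps, of which Gatm joins arginine and glycine and Gamt methylates the product. In mouse osteoclasts the brain-type enzyme encoded by Ckb is known to be induced during differentiation and to serve the ATP demand of acid secretion by the proton pump.

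Ckb lies on the minus strand of chromosome 12 (111669361 to 111672338, GRCm38). It was by far the highest of the creatine genes and was lower in both TSH libraries. Its level was 467 FPKM (counting interval 461 to 474, 21815 reads) with RANKL alone, against 331 FPKM (326 to 336, 16060 reads) in T1 and 334 FPKM (329 to 339, 16945 reads) in T2. The library of RANKL alone was the high one, and its interval did not overlap those of the TSH libraries, which overlapped each other. The ratio of FPKM to RANKL alone was 0.708 (0.694 to 0.723) in T1 and 0.715 (0.701 to 0.729) in T2. Both comparisons share the library of RANKL alone. In these bulk libraries, fewer cells that express Ckb and less Ckb RNA per cell cannot be told apart.

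Ckmt1, on the plus strand of chromosome 2 (121357714 to 121363737), encodes the ubiquitous mitochondrial creatine kinase, which sits between the mitochondrial membranes and charges creatine with exported ATP. It was at 8.50 FPKM (7.62 to 9.45, 342 reads) with RANKL alone, against 5.69 FPKM (4.99 to 6.46, 238 reads) in T1 and 5.10 FPKM (4.45 to 5.81, 223 reads) in T2. It was high with RANKL alone, with no overlap of that interval with either TSH library. The ratios were 0.669 (0.565 to 0.792) in T1 and 0.6001 (0.505 to 0.713) in T2.

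The promoters of both lower kinase genes are shown beside those of the synthesis genes Gatm and Gamt, which were not lower beyond counting error in either TSH library. The values that chose the genes also set which windows are shown, and the interval of Gamt in T2, given below, is wide. RefSeq promoter sequences on GRCm38.p6 matched 6 of the 7 genes, with Slc6a8 the exception. Each line holds the 250 bases before the start on the strand of the gene, and capitals mark matches to the motifs searched. For Ckb they lie at chr12:111672339-111672588 (minus strand), for Ckmt1 at chr2:121357526-121357775 (plus), for Gatm at chr2:122611278-122611527 (minus) and for Gamt at chr10:80261013-80261262 (minus). For Ckmt1 2 starts are listed, and the one nearest to the deposited start, 62 bases downstream of it, was used. The start used for Gatm lies 26 bases downstream of the deposited one. The ends of these windows therefore lie inside the genes as deposited.
Ckb: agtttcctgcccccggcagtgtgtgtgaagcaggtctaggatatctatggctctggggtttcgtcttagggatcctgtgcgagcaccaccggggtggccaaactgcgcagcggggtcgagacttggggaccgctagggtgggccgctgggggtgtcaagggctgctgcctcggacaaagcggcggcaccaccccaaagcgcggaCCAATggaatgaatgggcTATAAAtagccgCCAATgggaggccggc
Ckmt1: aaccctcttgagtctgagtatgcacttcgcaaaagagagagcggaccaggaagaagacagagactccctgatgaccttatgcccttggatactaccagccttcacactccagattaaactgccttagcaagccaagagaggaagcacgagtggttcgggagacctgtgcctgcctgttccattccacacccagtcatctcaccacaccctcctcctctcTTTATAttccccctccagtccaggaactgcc
Gatm: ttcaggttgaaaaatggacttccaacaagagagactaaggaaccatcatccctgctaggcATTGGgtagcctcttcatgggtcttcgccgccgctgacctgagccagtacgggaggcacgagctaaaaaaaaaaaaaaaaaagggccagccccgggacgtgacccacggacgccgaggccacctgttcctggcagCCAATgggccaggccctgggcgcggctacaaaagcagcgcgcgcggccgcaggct
Gamt: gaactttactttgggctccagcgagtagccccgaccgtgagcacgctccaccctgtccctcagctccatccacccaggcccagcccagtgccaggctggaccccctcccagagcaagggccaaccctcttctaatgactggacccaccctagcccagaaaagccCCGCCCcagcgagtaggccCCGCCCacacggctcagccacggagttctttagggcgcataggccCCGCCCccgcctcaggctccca

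The 5 motifs, read on both strands, were the TATA box TATAAA, the CCAAT box CCAAT, the GC box GGGCGG, the cAMP response element TGACGTCA and the AP-1 site TGANTCA. The TATAAA motif was found in the windows of Ckb and Ckmt1, and not in those of Gatm and Gamt. It started at positions -28 and -31 relative to the start used (for Ckmt1 on the other strand). The match of Ckmt1 lies inside the gene as deposited, since the start used is 62 bases downstream of the deposited one. The windows of Ckm and Ckmt2, which are not shown, did not hold it either. TATAAA occurred in 12.4% of 32851 promoter windows of this length. Among the windows shown, CCAAT was found 2 times each for Ckb and Gatm, against 33.9% of windows with a match. GGGCGG was found 3 times for Gamt, against 32.7%. None of the 4 windows shown held TGACGTCA or TGANTCA, which occurred in 1.55% and 6.75% of windows. These matches describe letters and not binding.

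The muscle isoforms were at or near 0. Ckm (chromosome 7, 19404776 to 19422841), the cytosolic kinase of muscle, had 1 read with RANKL alone, against 0 in T1 and 2 in T2, and Ckmt2 (chromosome 13, 91853387 to 91876885), the mitochondrial kinase of muscle, had 0 reads in each library. A count of 0 allows up to 3 reads as a one-sided 95% limit, which is 0.0614 FPKM for Ckm in T1 and 0.115 to 0.125 FPKM for Ckmt2. The upper ends of the exact intervals used elsewhere are higher, at 0.0755 FPKM and at 0.142 to 0.154 FPKM. Of 14 skeletal and heart muscle markers 10 or 11 were at 0 in each library, Acta1, Myh1, Myh4 and Mb among them. The muscle markers summed to 5.85 FPKM with RANKL alone, against 6.48 FPKM in T1 and 5.90 FPKM in T2, most of it Tnni2. Neuron and glia markers, listed because Ckb is named for the brain, summed to 15.8, 16.4 and 15.4 FPKM, nearly all of it Mbp. Snap25, Rbfox3, Map2 and Olig2 were at 0 in all 3 libraries.

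Creatine kinase RNA was made up almost wholly of Ckb. On the FPKM scale the 4 kinase genes summed to 476 with RANKL alone, against 337 in T1 and 339 in T2. Ckb held 98.2%, 98.3% and 98.5% of that sum, and Ckmt1 held 1.79%, 1.69% and 1.503%. Ckb stood at rank 90 from the top among 11069 genes with RANKL alone, at rank 144 in T1 and at rank 141 in T2. It took 0.135%, 0.0955% and 0.0974% of all reads. In FPKM the order in every library was Ckb, Slc6a8, Gatm, Ckmt1 and Gamt, and no neighbours in it had overlapping counting intervals. Ckm and Ckmt2 came last and could not be ordered.

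**Figure D1:**
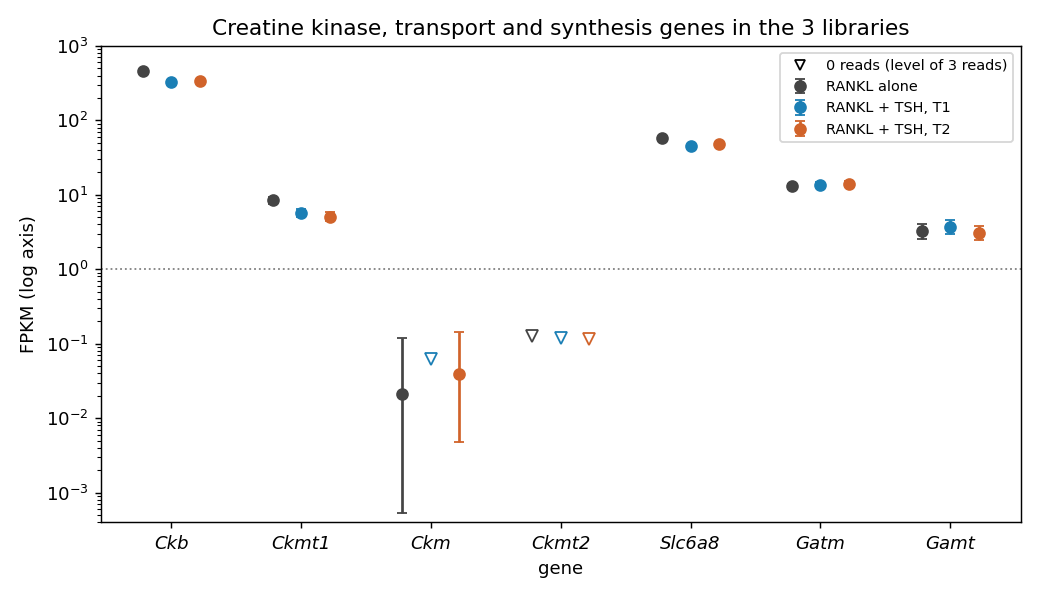
FPKM (log axis) of the 7 creatine genes in the library of RANKL alone and in the TSH libraries T1 and T2, 1 library each, with 95% Poisson intervals of the reads. Open triangles mark 0 reads and stand at the level of 3 reads, and the dotted line is 1 FPKM. Ckb lies at 467, 331 and 334 FPKM, and Ckm and Ckmt2 lie below 0.15.

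Slc6a8 (chromosome X, plus strand, 73673150 to 73682502) encodes the sodium- and chloride-dependent creatine transporter. It was at 58.0 FPKM (56.4 to 59.7, 4877 reads) with RANKL alone, against 45.7 FPKM (44.3 to 47.1, 3991 reads) in T1 and 47.7 FPKM (46.3 to 49.1, 4354 reads) in T2. It too was high with RANKL alone, without overlap of that interval with those of the TSH libraries. The ratios were 0.787 (0.755 to 0.821) in T1 and 0.822 (0.789 to 0.856) in T2. These lie above the ratios of Ckb, and the counting intervals of the genes do not overlap within either comparison. The FPKM of Ckb was 8.05 times that of Slc6a8 with RANKL alone, 7.24 times in T1 and 7.004 times in T2.

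Gatm (chromosome 2, minus strand, 122594467 to 122611303) encodes the mitochondrial enzyme that makes guanidinoacetate. It stood at 13.02 FPKM (12.0 to 14.1, 630 reads) with RANKL alone, against 13.7 FPKM (12.7 to 14.8, 690 reads) in T1 and 14.1 FPKM (13.1 to 15.1, 741 reads) in T2. All 3 intervals overlapped. The ratios were 1.05 (0.944 to 1.18) and 1.08 (0.972 to 1.21), whose lower bounds lie above the ratios of Ckb, Ckmt1 and Slc6a8.

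Gamt (chromosome 10, minus strand, 80258151 to 80261012) encodes the enzyme that methylates guanidinoacetate to creatine. It was low, at 3.22 FPKM (2.53 to 4.04, 75 reads), 3.68 FPKM (2.95 to 4.52, 89 reads) and 3.08 FPKM (2.44 to 3.85, 78 reads), with overlapping intervals. The ratios were 1.14 (0.830 to 1.57) in T1 and 0.957 (0.688 to 1.33) in T2. The ratios of Slc6a8 and Ckb in T2, 0.822 and 0.715, both lie within the T2 interval of Gamt. Differences of those sizes were therefore not detectable there at this depth. The T2 ratio of Ckmt1, 0.6001, lies below that interval. In T1 the lower bound of Gamt, 0.830, lies above the ratios of Slc6a8 and Ckb, 0.787 and 0.708. The ratio of transporter to first synthesis enzyme, Slc6a8 FPKM over Gatm FPKM, was 4.46 with RANKL alone, against 3.33 in T1 and 3.39 in T2.

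**Figure D2:**
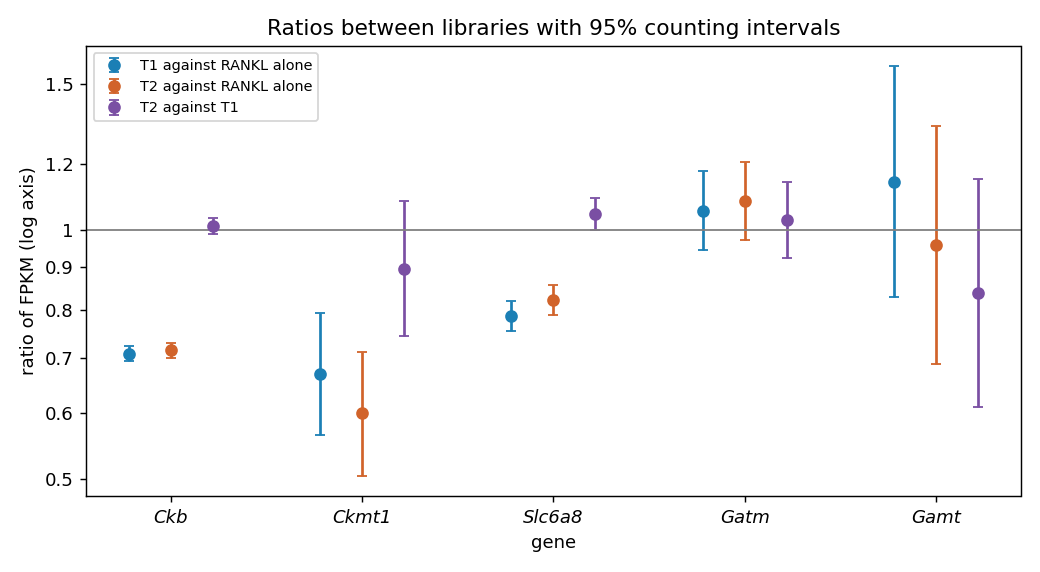
Ratios of FPKM (log axis) between libraries for the 5 creatine genes averaging 1 FPKM or more, with exact 95% counting intervals. Ckb, Ckmt1 and Slc6a8 lie below 1 against RANKL alone, at 0.6001 to 0.822, while the intervals of Gatm and Gamt and all intervals of T2 against T1, as deposited, span 1.

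Counts over the genes were read against all genes. A gene was counted beyond counting error where the interval of its ratio left out 1, a limit that well covered genes pass at small changes. Of the 5 creatine genes averaging 1 FPKM or more, 3 were lower beyond counting error in T1 and 0 higher, against 12.2% lower and 10.8% higher of the 11069 genes that passed this filter. In T2 the same 3 were lower and 0 higher, against 13.2% and 10.2%. With libraries rescaled to equal total FPKM the shares of all genes were 16.3% and 7.5% in T1 and 12.1% and 11.4% in T2, and the calls of the 5 genes did not change. By a size rule of 1.5-fold in log2(FPKM + 1), 0 were lower or higher in T1, where 1.15% of all genes were lower and 1.47% higher. By that rule 1, Ckmt1, was lower in T2, where 1.0% were lower and 1.45% higher. Nothing is read from these counts, since the same comparisons chose the genes.

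The size of each change was placed among all genes as a description. On the log2(FPKM + 1) scale, which understates changes of low genes, Ckb was at -0.50 in T1 and -0.48 in T2. The median of all genes was -0.0014 and -0.0018, and 90% of genes lay between -0.27 and 0.27 and between -0.26 and 0.26. Of the 122 genes with a mean at least that of Ckb, 3 in T1 and 2 in T2, Ckb included, had a change at or below its own. Ckmt1 was at -0.51 and -0.64 and Slc6a8 at -0.34 and -0.28. Of 11069 genes, 1.56% in T1 and 0.849% in T2 were at or below Ckmt1, and 3.13% and 4.45% at or below Slc6a8. Gatm was at 0.07 and 0.11, and Gamt at 0.15 and -0.05.

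**Figure D3:**
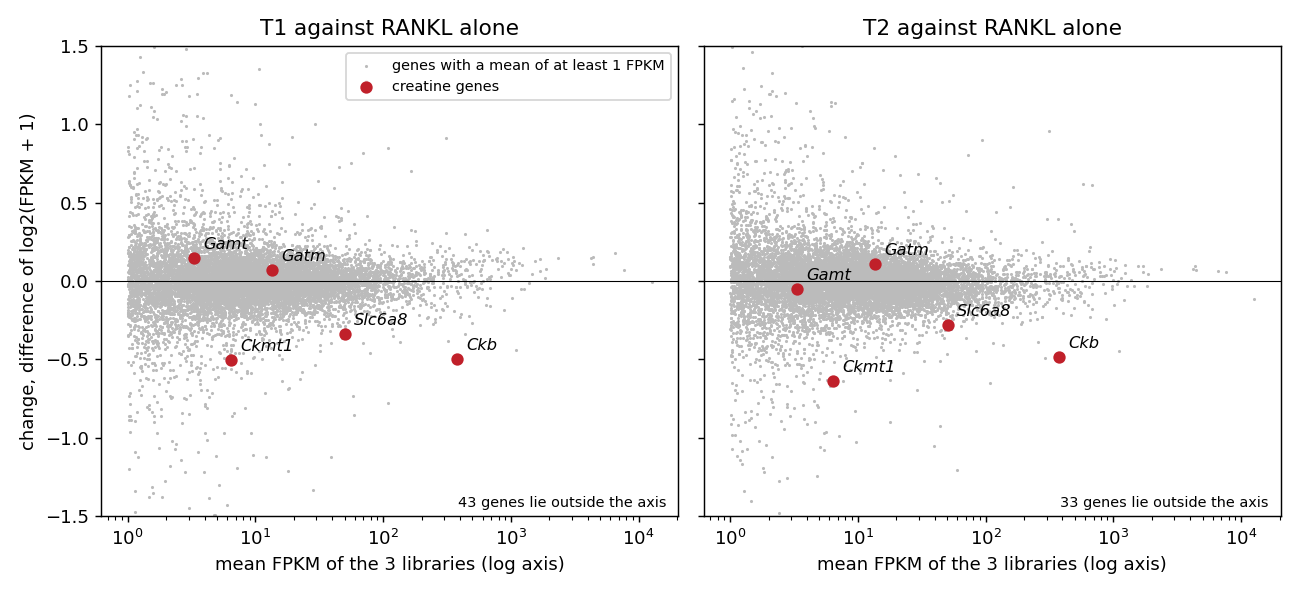
Change against RANKL alone (difference of log2(FPKM + 1)) by mean FPKM of the 3 libraries (log axis) for genes averaging 1 FPKM or more, with the creatine genes in red, for T1 and T2. Ckb, at -0.50 and -0.48, lies apart from most genes of its level, and 43 and 33 genes lie outside the axis limits.

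The TSH libraries differed little from each other in Ckb, Slc6a8 and Gatm, while the wide intervals of Ckmt1 and Gamt left their differences open. Which genes were beyond counting error depended on the scaling. As deposited, T2 over T1 had a ratio of 1.01 (0.988 to 1.03) for Ckb, 0.897 (0.744 to 1.08) for Ckmt1, 1.04 (0.9998 to 1.09) for Slc6a8, 1.03 (0.925 to 1.14) for Gatm and 0.839 (0.611 to 1.15) for Gamt. Thus 0 of 5 genes were lower and 0 higher beyond counting error, where 10.1% and 7.93% of all genes were, and 0 passed the 1.5-fold rule, where 1.05% of all genes were lower and 1.22% higher. With equal total FPKM 2 of 5 were higher beyond counting error, Ckb at 1.033 (1.011 to 1.06) and Slc6a8 at 1.07 (1.02 to 1.12), beside 5.63% of all genes lower and 14.0% higher. This comparison does not use the library of RANKL alone. The hours of TSH of the columns are not known, so no course over time can be read.

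Most osteoclast markers were lower in the same libraries. Of the 9 markers past the filter, 6 were lower and 1 higher beyond counting error in T1, where 12.2% of all genes were lower and 10.8% higher. The higher one was Nfatc1, a transcription factor of osteoclast formation, at a ratio of 1.05 (1.03 to 1.07), and the intervals of Dcstamp and Ocstamp, genes of cell fusion, held 1. In T2 9 were lower, against 13.2% of all genes. The medians were -0.18 and -0.24. Their summed level, with all 10 markers, was 3097 FPKM with RANKL alone, against 2572 in T1 and 2496 in T2. Ctsk, at 1337, 983 and 980 FPKM, and Acp5, at 972, 857 and 821.5 FPKM, held most of this sum. Calcr, the marker below the filter, had 44, 27 and 22 reads, with ratios of 0.590 (0.351 to 0.975) and 0.460 (0.263 to 0.785). The part of these marker differences in the levels of the creatine genes was not tested. The FPKM of Ckb was 35.0% of that of Ctsk with RANKL alone, against 33.7% in T1 and 34.1% in T2. Against Acp5 it was 48.1%, 38.6% and 40.7%, so Ckb was lower relative to Acp5 and changed little relative to Ctsk.

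Genes most like Ckb were sought among 4543 genes averaging 10 FPKM or more with at least 100 reads in all. Genes with predicted, clone, small RNA or pseudogene names, or annotated as pseudogenes or RNA genes, had been left out. Likeness was the distance between the pairs of log2(FPKM + 1) changes over the 3 libraries. The nearest was Ctsk, at a distance of 0.0648, with changes of -0.44 and -0.45. Il1rn, which encodes the antagonist of the interleukin 1 receptor, followed at -0.49 and -0.40, from 13.8 FPKM with RANKL alone. Next were Gpnmb, a transmembrane glycoprotein gene of macrophages and osteoclasts, at -0.39 and -0.41 from 163 FPKM, and the homeobox gene Hmx3, at -0.37 and -0.42 from 13.6 FPKM. The fifth was Oscar, the gene of an osteoclast receptor, at -0.38 and -0.40 from 25.8 FPKM. With 3 libraries this likeness rests on a pair of values for each gene.

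The lists around the creatine system had medians from -0.13 to -0.0024. Other genes tied to creatine handling had 2 of 5 members past the filter. Slc16a12, which encodes a creatine transporter of another family, stood at 14.4 FPKM with RANKL alone, against 14.7 FPKM in T1 and 13.2 FPKM in T2, with ratios of 1.02 (0.932 to 1.12) and 0.918 (0.838 to 1.01). Phospho1, a phosphatase gene of mineralizing tissue, had 44, 31 and 40 reads, with ratios of 0.678 (0.414 to 1.10) and 0.837 (0.531 to 1.31). It shares transcript sequence with its neighbours Abi3 and Zfp652, so its value is uncertain.

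Genes of arginine and glycine supply, the substrates of Gatm, had 15 of 21 members past the filter. In T1 1 was lower and 3 higher beyond counting error (median of the list -0.0070), and in T2 1 was lower and 4 were higher (median -0.0028). Of all genes, 12.2% were lower and 10.8% higher in T1, and 13.2% and 10.2% in T2. Shmt1, the cytosolic enzyme that makes glycine from serine, was at 13.2, 15.4 and 14.3 FPKM, with ratios of 1.17 (1.07 to 1.28) and 1.08 (0.985 to 1.19). Slc7a6, an exchanger of basic and neutral amino acids, was at 16.2, 16.5 and 17.97 FPKM, with a ratio of 1.11 (1.03 to 1.202) in T2. Its relative Slc7a7 was at 2.39, 1.94 and 1.93 FPKM, with a ratio of 0.805 (0.619 to 1.05) in T2.

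Genes of methyl donor supply and use, which Gamt draws on, had 12 of 18 members past the filter. In T1 4 were lower and 2 higher beyond counting error, beside 12.2% and 10.8% of all genes. In T2 the numbers were 3 and 2, beside 13.2% and 10.2%, and the medians of the list in T1 and T2 were -0.0026 and -0.0077. Mtrr, which keeps methionine synthase active, stood at 1.10 (0.968 to 1.26) times RANKL alone in T1 and at 1.15 (1.01 to 1.30) in T2. Pemt, a methyltransferase of phospholipids, had ratios of 1.26 (0.935 to 1.71) and 1.06 (0.776 to 1.45) from 80 to 105 reads.

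Other enzymes that pass phosphate between nucleotides had 11 of 18 members past the filter, of which 1 was lower and 1 higher beyond counting error in T1, where all genes gave 12.2% and 10.8%. In T2 3 were lower and 0 higher, where all genes gave 13.2% and 10.2%, and the medians were -0.04 and -0.02. Ak1, the cytosolic adenylate kinase that pairs with creatine kinase in energy transfer, was at 10.6, 10.0 and 8.76 FPKM, with ratios of 0.945 (0.826 to 1.08) and 0.825 (0.719 to 0.947). Nme4 and Nme6, nucleoside diphosphate kinase genes, had ratios of 0.990 (0.776 to 1.26) and 1.12 (0.946 to 1.34) in T1. In T2 they were at 1.21 (0.959 to 1.52) and 1.06 (0.892 to 1.26).

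Mitochondrial adenine nucleotide exchange, which feeds the kinase of Ckmt1, had 9 of 10 members past the filter. Of these 4 were lower and 0 higher beyond counting error in T1, with 12.2% and 10.8% over all genes. In T2 4 were lower and 2 higher, with 13.2% and 10.2% over all genes, and the medians were -0.0024 and -0.06. Vdac1, the main channel of the outer membrane, was at 125, 118 and 116 FPKM, with ratios of 0.945 (0.909 to 0.982) and 0.926 (0.892 to 0.963), and it has a near-identical pseudogene. Slc25a24, an ATP-magnesium carrier gene, had ratios of 0.845 (0.769 to 0.930) and 0.932 (0.851 to 1.02). Its relative Slc25a23, with a small RNA gene of shared sequence, had ratios of 1.05 (0.945 to 1.17) and 1.14 (1.03 to 1.27). By comparison the creatine genes past the filter had medians of -0.34 and -0.28, set by the choice of genes.

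**Figure D4:**
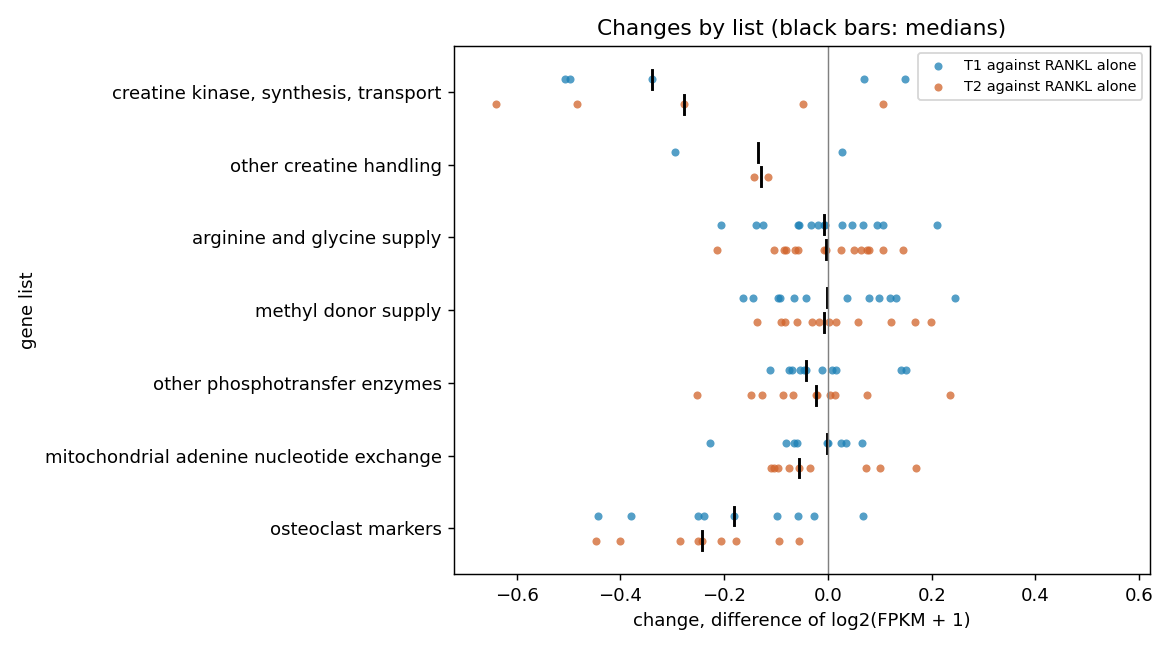
Change against RANKL alone (difference of log2(FPKM + 1)) of each gene averaging 1 FPKM or more, by list, for T1 (blue) and T2 (orange). Black bars are medians. Ckb, Ckmt1 and Slc6a8 lie between -0.64 and -0.28, and the supply, phosphotransfer and exchange lists spread around 0 with medians between -0.06 and 0. The list of other creatine handling holds 2 genes, with medians of -0.13, and both genes lie below 0 in T2.

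The length used for FPKM bears on levels set between these genes and not on ratios between libraries. The deposited length equals the bases covered by all exons of GENCODE M21, transcripts with retained introns included, 2895 for Ckb, while its RefSeq-matched messenger RNA has 1472 bases. The deposited length was 1.97 times the messenger RNA length for Ckb, 1.54 times for Ckmt1, 1.31 times for Slc6a8, 1.26 times for Gatm and 1.48 times for Gamt. Levels per messenger RNA length would therefore stand higher for Ckb relative to the others.

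Reads shared with similar genes were checked in the transcripts. The coding sequence of Ckb was 76.5% identical to that of Ckm and 67.1% and 67.2% identical to those of Ckmt1 and Ckmt2. Runs of identical bases were sought in the longest transcript of each gene only. The longest run that Ckb shared with any of the other kinases was 20 bases. A near-identical copy was found for 1 of the 7 genes, Ckb. This copy, the processed pseudogene Gm12892, had 9 to 14 reads a library, while Ckb had at least 16060. Exons overlap a gene on the other strand for Ckm, Ckmt2 and Ckmt1. For Ckmt1 the overlap is 10 bases with Strc, which was at 0 in all 3 libraries.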

How the data were processed

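Total RNA went into SMARTer mRNA libraries, per the labels' protocols. GRCm38 and mm10 are the genome builds named, per the submitters' processing notes. Aligner, counter, strand handling and annotation were not given in the sources used here. FPKM values were used as the authors deposited them, 1 column per library, with 0 per-sample columns unused. FPKM times the deposited gene length was a whole multiple of 1 step per library for 100% of values above 0 (within 0.05), which gave reads. The depth of that step differed from the read totals by -0.177%, -0.241% and 0.763%, and median-of-ratios factors of the deposited values were equal to 4 decimals in the 3 libraries (log2 shift 0.0000), as after such a scaling.

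Levels carry exact Poisson intervals, and ratios exact conditional (Clopper-Pearson) intervals, both at 95%. They cover counting error only and treat reads as independent. Reads from PCR copies of a molecule are not independent, so the intervals may be too narrow. Changes are differences of log2(FPKM + 1) over the genes averaging 1 FPKM or more, with a 1.5-fold size rule. No test was run. The functions were tested on simulated reads. The genes and lists were chosen with earlier results of these data known. Named were all 7 creatine genes, up to 3 members of each of 5 surrounding lists with the largest change, Ctsk, Acp5 and the 5 genes most like Ckb, except 1 gene that is not reported here. Other marker and pseudogene names were added once their values had been seen.

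Sequence copies were searched for by BLAST+ 2.17.0 (at least 95% identity over 100 bases and 50% of the shorter transcript) in GENCODE M21 transcripts on GRCm38, which held 99.8% of the identifiers and the same coordinates for all 7 genes. Python 3.11.15, numpy 2.4.6, pandas 2.3.3, scipy 1.17.1, Biopython 1.88 and matplotlib 3.10.9 were used.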

Additional observations from a re-analysis of the deposited data

How the results depend on the processing

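The log2 changes of the 5 creatine genes averaging 1 FPKM or more were recomputed with pseudocounts of 0.1 and 5, with libraries rescaled to the same total FPKM and with median-of-ratios scaling, and for Ckb with reads summed over its pseudogene. Of 63 such values 62 moved by less than the counting error, and 0 that were beyond counting error changed sign. The exception was Ckb in T2 against T1, at 0.047 with equal totals against 0.014. With equal totals 2 of 15 calls beyond counting error differed, Ckb and Slc6a8 in T2 against T1, both then higher. Ckb ranged from -0.52 to -0.49 in T1 and from -0.484 to -0.476 in T2. Ckmt1 ranged from -0.57 to -0.34 and from -0.73 to -0.42, so its pass of the 1.5-fold rule in T2 was lost with a pseudocount of 5, at -0.42, and with the 2-fold rule. Other members have no copy, so sums over copies were not run for them. Median-of-ratios scaling moved no log2 change of these genes by more than 0.0001, since its factors were already equal in the deposited values. The changes under that scaling, and the sums with the few pseudogene reads, are among the 63 values but could hardly move. They therefore add nothing on stability, and pseudocounts hardly act on a level as high as that of Ckb.

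Counts of genes past the size rule over all genes depended on the settings, by construction of each. They are given as lower and higher for T1 against RANKL alone, T2 against RANKL alone and T2 against T1, where the values reported were 127 and 163, 111 and 161, and 116 and 135. A pseudocount of 0.1 gave 237 and 265.0, 208 and 274, and 205 and 229, and one of 5 gave 36 and 43, 26 and 36, and 26 and 31. Without a filter the counts were 334 and 394, 319 and 438, and 324 and 375, and with a mean of at least 5 FPKM they were 31 and 43, 28 and 32, and 26 and 23. A 2-fold rule gave 52 and 63, 35 and 50, and 36 and 56, and a looser rule of 0.32 in log2 gave 394 and 419, 366 and 411, and 337 and 330. Each library is the only one of its time, so leaving one out gives no value. Depth limits Gamt, with 75 to 89 reads a library, and the muscle isoforms, with at most 2.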
